A study of Mus musculus with 30 samples.

Results

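Cassette exons were examined that changed their inclusion while mouse embryonic stem cells formed embryoid bodies, and whose length keeps the reading frame. Inclusion is given as percent spliced in (PSI), the share of a gene's transcripts that hold the exon, estimated from reads across splice junctions. An exon was taken when it was at least 28 nt long, its length was a multiple of 3, at least 10 junction reads covered it in each of the 6 wild-type libraries, and its mean PSI in wild type differed by at least 15 points between stem cells and embryoid bodies. This gave 670 exons of 548 genes out of 41063 frame-preserving exons with enough reads, or 1.63%, and out of 661327 splicing events of all kinds. Inclusion rose in 380 exons, called rising exons below, and fell in 290, called falling exons. The table names no gene for 6 of them. The exons were thus chosen by the measured stage difference in wild type, which is described without a test, and tests are restricted to contrasts that the choice did not use.

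RNA was sequenced after polyA selection from CGR8 mouse embryonic stem cells (ESC), from embryoid bodies (EB8: aggregates at day 8, grown without LIF and given 6 µM retinoic acid) and from glutamatergic neurons made from them (DIV7: 7 days in vitro after plating). The parental wild type (WTprtl) and 4 lines edited with CRISPR-Cas9 each gave 2 libraries per stage, so that 3 stages and 5 lines made 15 groups and 30 libraries. Puf60.mEx5.HOM is labelled as a homozygous deletion of Puf60 exon 5, Puf60.pEx5.HOM and Puf60.pEx5.HET are homozygous and heterozygous for its constitutive inclusion, and in Rbm38KO the gene Rbm38 is disrupted by a deletion. Puf60 is a splicing factor that binds pyrimidine tracts near the 3 prime splice site, and Rbm38 is an RNA-binding protein. The lines are clonal, and the labels do not say which clone gave which library.

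Cassette exons are kept in some mature transcripts of a gene and skipped in others, under the control of RNA-binding proteins that bind in and around them. An exon with a length divisible by 3 adds or removes a stretch of protein and leaves the reading frame downstream intact, so both transcripts can code for a full protein. Neurons are known for many such exons, in genes of the cytoskeleton, of cell adhesion, of vesicle traffic and of the synapse. The switch from Ptbp1 to Ptbp2, and the neuronal Rbfox, Nova, Elavl, Celf and Srrm4 proteins, are known regulators of neuronal exons, and the Esrp proteins of epithelial ones.

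The sequences of 13 of the exons are shown because they belong to related genes, or to a pair of neighbouring exons of 1 gene, and so let a reader see which related cassettes moved together and which moved apart. All 13 are coding in annotated transcripts. They are printed as transcript-strand DNA, 5′ to 3′, read from GENCODE M21 transcripts on GRCm38/mm10, and capitals mark the positions at which the sequences of a set differ. The 339 rising and 240 falling exons whose sequence was found in annotated transcripts were compared with those of equal length. Of 3365 such pairs, 10 were identical at 60% or more of their positions. The pair most alike (83.3%) was the 36-nt exons of Homer1, a scaffold of the synapse, and Nrf1, a transcription factor, which are not related genes and whose exons moved in opposite directions in wild type (25.43 and -20.34 points).

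Mapk8 codes for a c-Jun N-terminal kinase and holds a pair of 72-nt exons 359 nt apart that each code for the same part of the kinase domain. The upstream exon, which comes first in the transcript, is less like its neighbour (62.5% identical) than like the rising exon of the related kinase gene Mapk9 (81.9%). Of the 72 positions, 44 were shared by all 3 exons. They lie at chr14:33390673-33390744 on the minus strand (Mapk8, upstream), chr14:33390242-33390313 on the minus strand (Mapk8, downstream) and chr11:49873836-49873907 on the plus strand (Mapk9).
Mapk8 upstream: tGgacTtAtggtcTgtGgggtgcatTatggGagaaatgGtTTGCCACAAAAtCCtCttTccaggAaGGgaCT
Mapk8 downstream: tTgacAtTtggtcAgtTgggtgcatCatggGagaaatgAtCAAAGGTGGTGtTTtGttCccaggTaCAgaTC
Mapk9: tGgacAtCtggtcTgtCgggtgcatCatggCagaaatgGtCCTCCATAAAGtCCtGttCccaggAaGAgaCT

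App, the amyloid precursor protein, and its relative Aplp2 each hold a 168-nt exon for a Kunitz-type protease inhibitor domain, and 114 of the 168 positions were the same. They lie at chr16:85043576-85043743 (App) and chr9:31167561-31167728 (Aplp2), both on the minus strand.
App: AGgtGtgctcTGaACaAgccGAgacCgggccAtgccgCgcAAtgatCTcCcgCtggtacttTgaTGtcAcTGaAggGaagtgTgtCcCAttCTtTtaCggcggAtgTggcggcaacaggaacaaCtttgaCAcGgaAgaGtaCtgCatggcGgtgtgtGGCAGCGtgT
Aplp2: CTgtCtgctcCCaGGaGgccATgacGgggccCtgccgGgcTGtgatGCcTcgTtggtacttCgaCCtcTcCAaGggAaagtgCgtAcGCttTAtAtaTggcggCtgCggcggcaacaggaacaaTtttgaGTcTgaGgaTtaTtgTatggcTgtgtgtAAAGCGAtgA

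Map2 and Map4 are microtubule-associated proteins, and the 93-nt exon of each codes for a repeat of the microtubule-binding region. The exons lie at chr1:66431527-66431619 (Map2) and chr9:110072613-110072705 (Map4), both on the plus strand, and share 59 positions.
Map2: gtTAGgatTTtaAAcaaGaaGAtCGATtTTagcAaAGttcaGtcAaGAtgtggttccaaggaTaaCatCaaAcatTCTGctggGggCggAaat
Map4: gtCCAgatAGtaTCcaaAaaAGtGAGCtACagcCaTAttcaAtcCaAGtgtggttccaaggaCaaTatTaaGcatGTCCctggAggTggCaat

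Camsap2 and Camsap3 bind the minus ends of microtubules, and their 33-nt exons share 21 positions. They lie at chr1:136297284-136297316 on the minus strand (Camsap2) and chr8:3599217-3599249 on the plus strand (Camsap3).
Camsap2: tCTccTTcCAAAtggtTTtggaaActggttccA
Camsap3: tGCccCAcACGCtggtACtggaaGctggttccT

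Lrrfip1 and Lrrfip2 are related proteins whose 72-nt exons share 55 positions, at chr1:91103247-91103318 and chr9:111193047-111193118, both on the plus strand.
Lrrfip1: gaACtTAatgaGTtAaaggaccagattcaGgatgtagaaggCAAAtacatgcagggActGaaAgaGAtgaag
Lrrfip2: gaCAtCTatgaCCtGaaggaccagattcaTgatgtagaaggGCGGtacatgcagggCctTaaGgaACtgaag

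Acsl6, an acyl-CoA synthetase for long-chain fatty acids, holds a pair of 78-nt exons 57 nt apart, at chr11:54336936-54337013 and chr11:54337071-54337148 on the plus strand, with 46 positions in common.
Acsl6 first: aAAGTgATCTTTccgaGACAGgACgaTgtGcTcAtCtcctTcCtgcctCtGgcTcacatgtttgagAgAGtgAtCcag
Acsl6 second: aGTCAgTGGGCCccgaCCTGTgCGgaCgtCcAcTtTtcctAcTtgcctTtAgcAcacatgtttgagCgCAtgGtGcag

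Junction reads per library numbered 23204150 to 38571969, with the lower end at DIV7. The labels were checked on the edited genes and on marker genes, as CPM, the junction reads of a gene scaled to the depth of its library. Rbm38 stood at 0 CPM in all 6 Rbm38KO libraries and at 8.456 to 86.59 in wild type. Exon 5 of Puf60, which is not among the 670, had a PSI of 93.15 to 98.97 in Puf60.pEx5.HOM, 49.2 to 64.9 in Puf60.pEx5.HET and 20.71 to 43.95 in wild type, and it was low but above 0 (7.49 to 13.01, on 673 to 1323 reads) in all 6 libraries of the line labelled as lacking it. This goes against a complete loss of the exon, and the reason was not tested. The summed level of 12 neuron genes was 247.7 to 362.1 CPM at ESC and 4811 to 5839 at DIV7, and that of 11 pluripotency genes was 4491 to 6587 at ESC and 31.63 to 76.83 at EB8. In bulk RNA, a change in the share of cells that use an exon and a change of its use within each cell cannot be told apart.

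In wild type the median change of the 670 exons was 25.3 points, 247 changed by at least 30 points and 71 by at least 50. In 523 exons each replicate pair of libraries passed 15 points by itself. Median PSI of the rising exons was 19.6 at ESC, 55.4 at EB8 and 83.4 at DIV7, and that of the falling exons 74.6, 35.7 and 19.9. Just inside the threshold stood exons of Rfx1 (339 nt, 15.0 points), Cstf2 (60 nt, 15.0 points) and Gas2l1 (258 nt, 15.0 points), and just outside it stood exons of Med15 (120 nt, -14.98 points), Ptpru (30 nt, 14.965 points) and Arhgap21 (30 nt, 14.95 points). Among frame-preserving exons with a mean wild-type PSI of 5 to 95, 670 of 2960 (22.6%) passed the threshold. Exons that break the frame passed it in 572 of 3383 cases (16.9%) under the same reading of the files.

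The median length of the exons was 90 nt (30 to 6198), against 120 nt for all other frame-preserving exons and 99 nt for those of them with a mean wild-type PSI of 5 to 95. Of the 121 exons of 30 to 51 nt, 65.3% were rising, against 53.9% of the 273 exons of 54 to 99 nt and 54.3% of the 210 exons of 102 to 198 nt and 60.6% of the 66 longer ones. GC content had a median of 54.4% in the 339 rising exons and 50% in the 240 falling exons whose sequence was found in annotated transcripts. In GENCODE M21, 500 of the 670 (74.6%) were wholly coding in at least 1 transcript, 32 were partly coding, 22 lay in a 5′ UTR, 19 were seen only in noncoding transcripts and 6 only in transcripts marked for nonsense-mediated decay, and 91 were not annotated as exons. The coding share was 77.9% of the rising and 70.3% of the falling exons, both between the 65.5% of the 2290 other frame-preserving exons with a mean PSI of 5 to 95 and the 81.2% of all 40393 others. No test was made of these shares, since exons of 1 gene are not independent: 86 genes held more than 1 of the exons, 202 in all. Among the exons named below, those of Csnk1e, Srcin1, Nectin3, Atg13, Scamp5, Afap1, Mtf2, Mapk8ip3 and Clcn5 were not annotated as exons. Nor were the 147-nt exon of Rab3il1 and the 63-nt exons of Actn1 and Mapk9. The named exons of Dtna, Slc25a40, Cyb561a3 and Gas2l1 lay in a 5′ UTR.

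The edited lines gave a test in libraries that had no part in the choice. Log ratios of inclusion to exclusion reads were fitted with limma over all 30 libraries, and an exon passed at a Benjamini-Hochberg adjusted p under 0.05 with a mean difference of at least 10 points. The fit took 19601 events of all kinds with at least 10 reads in every library and a mean PSI of 5 to 95. Of the 670 exons, 587 had that many reads in every library and 582 entered the fit (330 rising, 252 falling). Over the mean of the 4 edited lines, 547 of the 582 exons (94%) passed from ESC to EB8 in the direction seen in wild type, 308 higher and 239 lower. Of all events 18.1% passed, 11.1% higher and 6.97% lower. The median change was 25 points for rising and -24.88 points for falling exons, beside 1.01 points over all events.

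**Figure D1:**
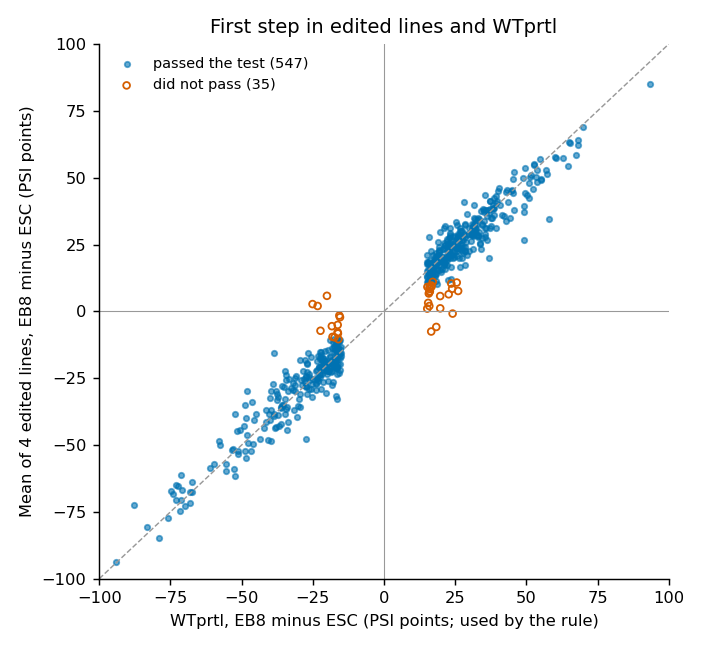
Change in PSI from ESC to EB8 for each of the 582 exons: the x axis gives wild type (points, used to choose the exons) and the y axis the mean of the 4 edited lines (points); the dashed line marks equal change. Filled points are the 547 exons that passed in the edited lines and open points the 35 that did not, and no exon lies within 15 points of 0 on the x axis because of the choice.

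Each line taken alone showed the switch in fewer exons. From ESC to EB8, 501 of 582 passed in the wild-type direction in Puf60.mEx5.HOM (all events 16.9%), 480 in Puf60.pEx5.HET (15.2%), 442 in Rbm38KO (12.3%) and 369 in Puf60.pEx5.HOM (10.4%). The median change of the rising exons was 33.09 points in Puf60.mEx5.HOM, 29.35 in Puf60.pEx5.HET, 21.9 in Rbm38KO and 16.18 in Puf60.pEx5.HOM, and that of the falling exons -30.94, -26.74, -22.43 and -21.29 points. All 4 lines passed for 329 exons (6.1% of all events), 3 lines for 103, 2 for 65, 1 for 37 and none for 48. For the counts below 4 lines the share of all events is not given here. The medians over the 334 rising and 253 falling exons with reads in all 30 libraries lay close together at ESC, 16.26 to 24.13% and 70.37 to 73.14%. They lay close together again at DIV7, at 80.89 to 88.36% and 16.33 to 19.52%. At EB8 they spread: for the rising exons the 2 libraries stood at 58.86 and 61.47% in Puf60.mEx5.HOM, at 57.42 and 59.79% in Puf60.pEx5.HET, at 52.26 and 55.25% in wild type, at 49.3 and 49.4% in Rbm38KO and at 48.11 and 44.43% in Puf60.pEx5.HOM. The libraries of no line overlapped with those of the next in that order apart from those of Puf60.mEx5.HOM and Puf60.pEx5.HET. The wild-type libraries at ESC and EB8 were used to choose the exons, so the place of wild type in this order is not an independent comparison.

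**Figure D2:**
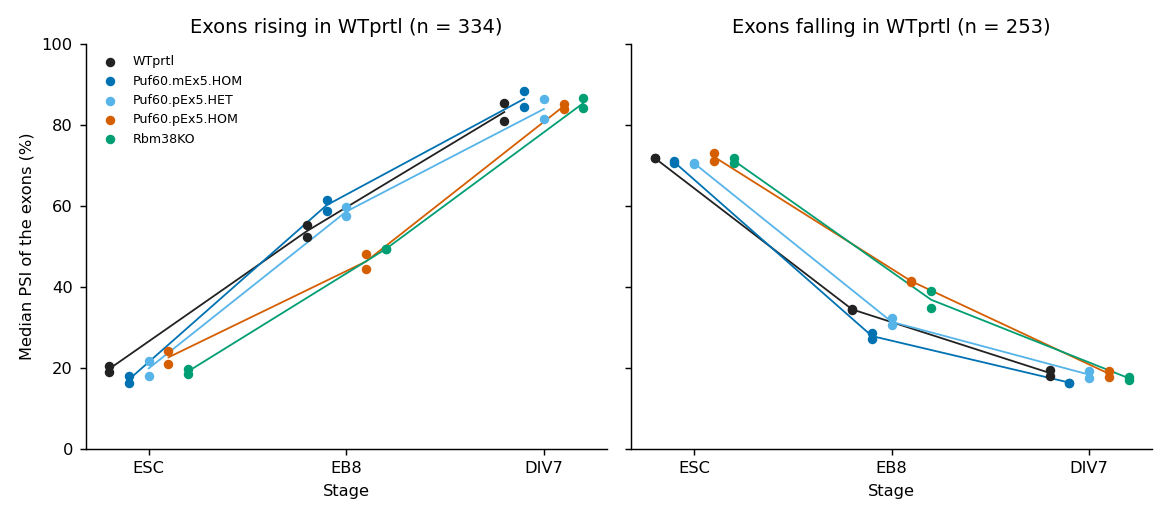
Median PSI (percent) of the rising exons (left, n = 334) and falling exons (right, n = 253) in each library by stage; points are libraries and lines join the means of the 2 libraries of a group. The 5 lines lie together at ESC and DIV7 and furthest apart at EB8, where Puf60.pEx5.HOM is lowest among rising exons and highest among falling ones.

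Among the exons that passed in all 4 edited lines, those with the largest rise included Csnk1e, Arhgef11, Tpd52, Madd, Cadm1, Wdr44, Cask and Akap9. A 171-nt exon of Csnk1e, a casein kinase that acts in the circadian clock and Wnt signalling, had a PSI of 0 and 1.89% in the 2 wild-type ESC libraries, 94.3 and 94.7% at EB8 and 94.8 and 98.4% at DIV7. In the 8 edited libraries it ran from 0 to 15.6% (median 4.81%) at ESC and from 74.4 to 100% (median 94.1%) at EB8. The groups of the 2 stages did not overlap, and the mean change in the edited lines was 84.86 points (limma, adjusted p = 3.6e-11). This exon was not in the annotation and is the largest rise in wild type, at 93.5 points. It had 17 to 121 reads per library.

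Madd, a regulator of Rab GTPases, used a 63-nt coding exon in 0 to 1.96% of transcripts in the edited ESC libraries, in 37.1 to 82.1% at EB8 (median 68.6%) and in 96.0 to 99.1% at DIV7. It rose by 63.49 points to EB8 (limma, adjusted p = 6.1e-08) and by a further 34.03 points to DIV7. Cask, a scaffold of the presynaptic terminal, used a 36-nt exon at 14.4 to 33.9% at ESC and 76.9 to 90.0% at EB8, a rise of 58.46 points (adjusted p = 1.84e-13). The 129-nt exon of Arhgef11, a guanine nucleotide exchange factor, rose by 68.8 points (adjusted p = 1.28e-14) and was nearly always kept at DIV7 (96.6 to 100%). In Tpd52 a 42-nt exon rose by 64.23 points, in Wdr44 a 135-nt exon by 62.16 points and in Akap9, an anchor of protein kinase A at the centrosome and Golgi, a 141-nt exon by 57.81 points.

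Large falls were in Map2, Srcin1, Myo18a, Tmem63b, Ect2, Cabp1 and Erc1. The 93-nt exon of Map2 shown above stood at 96.6 and 96.1% in wild-type ESC, 2.17 and 2.53% at EB8 and 3.73 and 2.91% at DIV7. The edited libraries spanned 91.3 to 100% at ESC and 1.2 to 5.15% at EB8, so that this exon went from nearly always kept to nearly always skipped in a single step in all 5 lines. The mean change in the edited lines was -93.54 points (limma, adjusted p = 1.71e-14), and the difference of 0.17 points from EB8 to DIV7 did not pass (adjusted p = 0.482).

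A 45-nt exon of Myo18a, an unconventional myosin, stood at 92.3 to 98.6% in the edited ESC libraries and at 4.08 to 26.3% at EB8, a change of -80.5 points (limma, adjusted p = 9.81e-18). The 93-nt exon of Ect2, a guanine nucleotide exchange factor that acts in cytokinesis, changed by -74.72 points, from 93.1 to 97.5% at ESC to 15.9 to 27.2% at EB8. Its values at DIV7 ran from 3.23 to 62.8%, on 16 to 69 reads. They were highest in Puf60.pEx5.HOM (33.33 and 62.79%) and in replicate B of Puf60.pEx5.HET (40.82%). Tmem63b, an ion channel of the membrane, had a 39-nt exon that changed by -77.3 points. The 84-nt exon of Erc1, a scaffold of the cell cortex and the active zone, changed by -71.64 points, the 123-nt exon of Srcin1, an inhibitor of Src, by -84.73 points and the 180-nt exon of Cabp1, a calcium-binding protein related to calmodulin, by -72.36 points. The Cabp1 exon had 14 to 163 reads per library.

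The related exons shown above did not all move together. The upstream Mapk8 exon stood at 5.11 and 15.0% in wild-type ESC, 58.4 and 69.4% at EB8 and 92.4 and 93.2% at DIV7, while the downstream exon stood at 92.8 and 84.1%, then 41.8 and 32.4%, then 7.23 and 8.33%. In the edited lines the upstream exon rose by 52.98 points (limma, adjusted p = 1.13e-12) and the downstream exon changed by -53.51 points (adjusted p = 7.16e-15). The Mapk9 exon that is most like the upstream Mapk8 exon also rose, by 22.01 points to EB8 and by 48.47 points to DIV7 (adjusted p = 6.4e-17 for the second step). A neighbouring 63-nt exon of Mapk9, 356 nt away, changed by -22.62 and -50.53 points over the same steps. In Mapk8 and in Mapk9 the exons of the pair mirrored each other, so their changes are not independent observations.

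The Kunitz exons of App and Aplp2 both fell. The App exon stood at 85.6 and 86.2% in wild-type ESC, 13.4 and 12.6% at EB8 and 6.11 and 3.1% at DIV7. It fell in the edited lines by 70.44 points to EB8 (limma, adjusted p = 3.07e-15), and at EB8 it was higher in Puf60.pEx5.HOM (31.1 and 37.2%) than in Puf60.mEx5.HOM (7.03 and 5.74%). The next exon of App, 57 nt long, stood at 39.1 and 45.2% in wild-type ESC and 3.56 and 3.53% at EB8. The Aplp2 exon moved less, from 56.02 and 53.53% to 35.9 and 31.6% and then 28.3 and 23.8%, and fell by 17.93 points to EB8 in the edited lines (adjusted p = 3.97e-11).

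The repeat exons of Map2 and Map4 moved in opposite directions. The Map4 exon stood at 49.3 and 50.1% in wild-type ESC, 76.3 and 77.7% at EB8 and 87.6 and 85.2% at DIV7, and it rose by 22.69 points to EB8 in the edited lines (limma, adjusted p = 3.49e-12). Among genes that bind microtubules, the 33-nt exons of Camsap2 and Camsap3 both rose, by 49.85 points (adjusted p = 4.31e-06) and 50.34 points (adjusted p = 8.22e-12) to EB8. Camsap3 stood at 1.95 and 1.38%, then 56.2 and 54.1%, then 97.9 and 98.1% in wild type, and Camsap2 at 0 in both ESC libraries, then 45.9 and 51.5%, then 84.1 and 90.4%. The 105-nt exons of Clip1 and Clip2 (69.5% identical) and the 63-nt exons of Clasp1 and Clasp2 (66.7% identical), all proteins of growing microtubule ends, also rose in each gene, by 46.04, 24.19, 18.46 and 29.97 points.

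The 72-nt exons of Lrrfip1 and Lrrfip2 fell together to EB8, by 38.55 and 35.06 points in the edited lines, and then parted. Lrrfip2 stood at 62.9 and 63.1% in wild-type ESC, 26.3 and 28.8% at EB8 and 52.3 and 54.6% at DIV7, and it rose by 24.73 points in the second step (limma, adjusted p = 1.41e-11). Lrrfip1 stood at 48.6 and 54.4%, then 7.01 and 5.79%, then 5.03 and 7.02%, and its difference of 2.73 points in the second step was too small to pass. In Acsl6 the first exon rose by 32.06 points and the second changed by -28.07 points to EB8 (adjusted p = 1.41e-05 and 6.78e-05). Among all 158 pairs of the exons within 1 gene, 111 moved in the same direction in wild type and 47 in opposite directions, at distances of up to 311033 nt. Of the 29 such pairs with no other of the exons between them and at most 1000 nt apart, 19 moved in the same and 10 in opposite directions. These counts are a description, since the directions were used in the choice and pairs within 1 gene are not independent. Snap91 with 6 rising and Dst with 5 falling exons gave only pairs of the same direction. One of the opposite pairs lies in Actn1, an actinin that crosslinks actin, with exons of 81 and 63 nt 440 nt apart. The 81-nt exon rose by 55.24 points (34.02 and 35.89% in wild-type ESC, 90.15 and 84.81% at EB8) and the 63-nt exon changed by -52.15 points (63.74 and 60.99%, then 10.7 and 16.4%). The exons of this pair mirrored each other as well, so they are not independent observations.

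**Figure D3:**
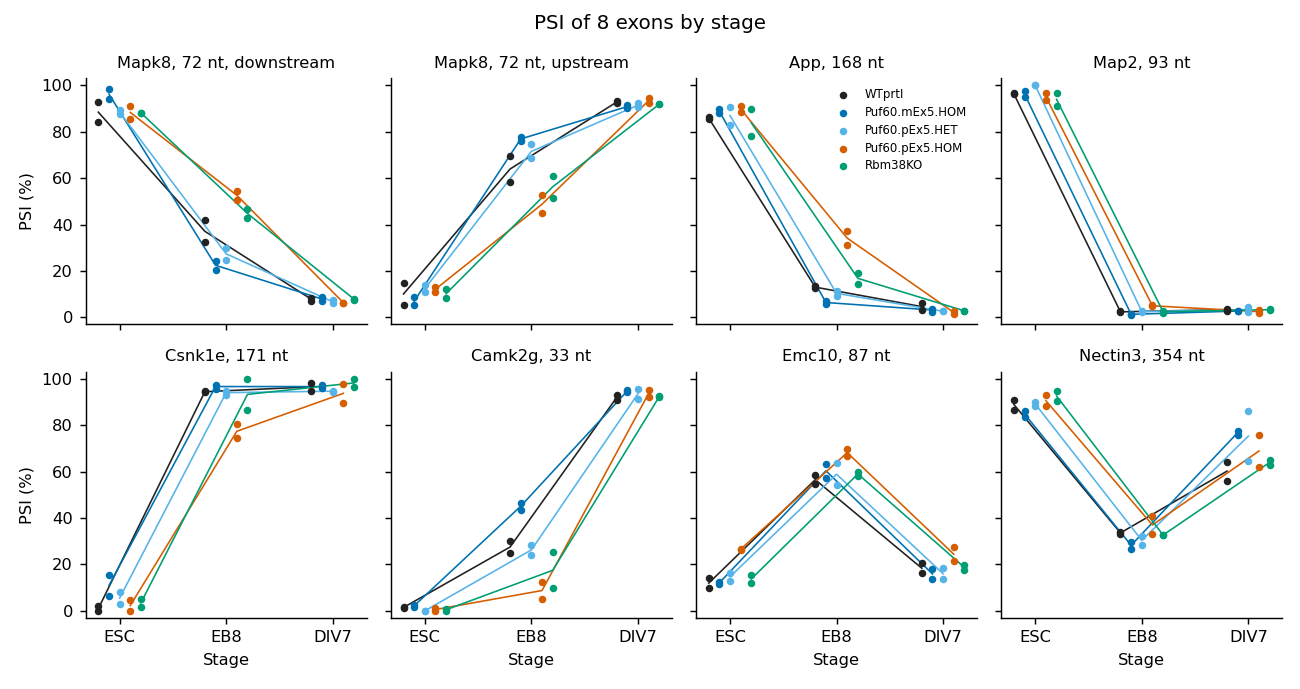
PSI (percent) of 8 exons by stage in the 5 lines; points are libraries and lines join the means of the 2 libraries of a group. The 2 Mapk8 exons mirror each other, the App, Map2 and Csnk1e exons change mostly by EB8, the Camk2g exon mostly by DIV7, and the Emc10 and Nectin3 exons turn back after EB8.

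By function, the exons were grouped with 7 gene lists, chosen with earlier results of these data known. For these lists the counts are of exons in the fit, set beside a median absolute change of 24.94 points over all 582 exons in the edited lines. Each count is also given as a share of all events of the list's genes in the fit, beside 2.97% (582 of 19601) over all genes. The list of adhesion, junction and matrix genes held 31 of them (15.7% of its 198 events), of which 22 rose and 9 fell, with a median of 31.89 points. Cadm1, a synaptic and epithelial adhesion protein, had both kinds: its 33-nt exon rose by 63.04 points (21.1 to 36.9% in edited ESC, 85.1 to 96.7% at EB8; limma, adjusted p = 2.78e-15) and its 84-nt exon changed by -52.32 points (97.1 to 99.4%, then 32.1 to 59.5%; adjusted p = 1.62e-15). The 84-nt exon of Magi1, a scaffold of tight junctions, rose by 54.62 points.

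The cytoskeleton list held 57 of the exons (17.9% of its 318 events), of which 26 rose and 31 fell (median 29.44 points). It held the Map2 and Myo18a exons above, and 5 exons of Dst, a plakin that links cytoskeletal filaments, which all fell. In Dst, 4 neighbouring exons of 150 to 5292 nt changed by -64.98 to -68.18 points and a 111-nt exon far downstream by -58.62 points. The 4 read nearly the same PSI in each library (for the 5292-nt exon 86.96 and 63.73% in wild-type ESC, 1.27 and 4.65% at EB8), so they are not independent observations.

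Kinase, phosphatase and GTPase genes had 43 exons in the fit (10.4% of 412 events), 25 risen and 18 fallen (median 28.27 points). Vesicle and endocytosis genes had 34 (14.2% of 239 events), of which 22 rose, 11 fell and 1 did not pass (median 26.64 points). In this group Synj1, a lipid phosphatase of synaptic vesicle recycling, had a 39-nt exon that rose by 57.32 points (10.6 to 28.1% in edited ESC, 51.5 to 88.8% at EB8). The 84-nt exon of Golim4, a membrane protein of the Golgi, changed by -51.78 points and then came back by 10.66. Snap91, a clathrin assembly protein of the synapse, held 6 rising exons, the most of any gene, but its low read numbers in edited ESC libraries (down to 4) left 1 of them in the fit, the 84-nt exon at chr9:86774197-86774280, which rose by 34.65 points (adjusted p = 8.18e-08).

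Chromatin and transcription genes had 17 exons in the fit (3.78% of 450 events, near the share over all genes), of which 12 rose, 3 fell and 2 did not pass (median 21.17 points). In this list a 72-nt exon of Tcf12, a helix-loop-helix factor, rose by 43.11 points. The 189-nt exon of Bptf, a subunit of a nucleosome remodeller, stood at 11.5 and 12.2% in wild-type ESC, 44.8 and 53.5% at EB8 and 83.6 and 86.4% at DIV7, and rose by 41.34 points and then 32.14 points in the edited lines. Smarcc2, a core subunit of the BAF remodeller, showed the same course with a 93-nt exon: 0.65 to 10.2% in edited ESC, then 27.8 to 61.6% and, in neurons, 88.8 to 93.6%.

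RNA-binding and splicing genes had 10 exons in the fit (2.44% of 410 events, below the share over all genes), of which 7 rose, 2 fell and 1 did not pass (median 27.66 points). The 39-nt exon of Elavl2, a neuronal RNA-binding protein, rose by 50.33 points, and the 36-nt exon of Mbnl1, itself a splicing regulator, by 49.13 points. The Mbnl1 exon had only 12 to 57 reads per library. Channel and synapse genes had 11 exons in the fit (8.87% of 124 events), 6 risen and 5 fallen (median 29.76 points). A 30-nt exon of Unc13a, which primes synaptic vesicles, rose from 0 to 17.2% in edited ESC to 42.1 to 68.5% at EB8, and the 108-nt exon of Gphn, the scaffold of inhibitory synapses, changed by -42.26 points. The lists count several exons of the same gene, and the direction of each count was fixed in part by the choice of members.

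For 48 exons no edited line passed when taken singly. Among them Dixdc1 (90 nt) had a mean rise of 23.44 points and Ralgapa2 (141 nt) of 19.93 points, and Clcn5 (87 nt) a change of -15.56 and Cyb561a3 (93 nt) of -17.1 points, all in the wild-type direction and all passing over the mean of the 4 lines. The 87-nt exon of Rab10os, a noncoding transcript, had a difference of 10.79 points (limma, adjusted p = 0.203). A 108-nt exon of Myl6, a myosin light chain, had 45.1 and 74.2% in wild-type ESC and 31.4 and 47.8% at EB8, and it passed in the opposite direction in Puf60.pEx5.HOM, with a difference of 5.82 points over the 4 lines (adjusted p = 0.134). Without 1 ESC library of Puf60.pEx5.HET (replicate A) Rab10os passed, and without 1 EB8 library of Puf60.mEx5.HOM (replicate A) Myl6 passed over the mean of the lines.

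From EB8 to DIV7, 363 of the 582 exons passed over the mean of the edited lines (19.4% of all events, 10.9% higher and 8.45% lower): 312 moved on in the direction of the first step in wild type, 206 rising and 106 falling, and 51 moved back, 25 rising and 26 falling exons. Of the 547 exons that passed in the first step, 196 did not pass in the second. The median second change was 17.74 points for rising and -7.24 points for falling exons, beside 0 over all events. The rising exons moved further in the lines that had moved less before: by a median of 24.17 points in Puf60.pEx5.HOM and 23.23 in Rbm38KO, against 12.45 in Puf60.mEx5.HOM and 14.46 in Puf60.pEx5.HET. These second steps share their EB8 libraries with the first.

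Exons that made most of their change after EB8 included the 33-nt exon of Camk2g, a subunit of calcium/calmodulin-dependent kinase. It stood at 1.81 and 1.09% in wild-type ESC, 29.99 and 25.03% at EB8 and 90.8 and 93.1% at DIV7, and it rose by 69.21 points from EB8 to DIV7 in the edited lines (limma, adjusted p = 3.43e-18). A 180-nt exon of Kif21b, a kinesin, was at 0 in all ESC libraries, at 12.03 to 24.88% in edited EB8 and at 83.0 to 91.7% at DIV7, and it is annotated only in a transcript marked for nonsense-mediated decay. Kansl3, of a histone acetyltransferase complex, rose by 68.18 points and Ralgapa2, of a GTPase-activating complex, by 68.7 points in the second step. In the other direction the 63-nt exon of Nhs, a regulator of actin, was nearly always kept at ESC (91.9 to 100% in the edited lines) and spread from 37.0 to 93.9% at EB8. It was nearly gone at DIV7 (0.93 to 10.2%), a second change of -65.89 points. Dtnb, a dystrobrevin, changed by -64.49 points, Agfg1 by -62.65 points and the 132-nt exon of Erc1 by -61.16 points in that step.

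Other exons turned back after EB8. The 87-nt exon of Emc10, a subunit of a membrane protein insertion complex, stood at 9.83 and 14.04% in wild-type ESC, 54.6 and 58.5% at EB8 and 20.4 and 16.3% at DIV7. In the edited lines it rose by 44.85 points and then changed by -42.88 points (limma, adjusted p = 8.16e-17). Ptprs, a receptor phosphatase of axons, rose by 27.37 and then changed by -35.1 points with a 306-nt exon, and Nin, a centrosome protein, by 28.97 and then -30.26 points with a 2121-nt exon. A 354-nt exon of Nectin3, an adhesion protein, did the reverse and stood at 86.8 and 91.1% in wild-type ESC, 33.3 and 33.9% at EB8, and 56.1 and 64.4% at DIV7. It changed by -57.25 points and then rose by 39.18 (adjusted p = 3.39e-11). The 36-nt exon of Fat1, an atypical cadherin, fell by 19.18 and then rose by 41.19 points. In Nav2, a 453-nt exon stood at 40.52 and 35.62% in wild-type ESC, 17.42 and 23.98% at EB8 and 62.97 and 66.2% at DIV7. In the edited lines its first difference, -9.7 points, was short of the 10 points a call needs, and it rose by 42.46 points in the second step (adjusted p = 2.76e-14).

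The edited lines differed from each other most at EB8. Between the homozygous Puf60 lines, 247 of the 582 exons passed at EB8 (7.72% of all events, 3.4% higher and 4.32% lower), against 60 at ESC (2.48%) and 47 at DIV7 (3.44%). At EB8, Puf60.pEx5.HOM had the lower PSI in 137 rising exons and the higher PSI in 91 falling exons that passed, which makes 228 on the ESC side of Puf60.mEx5.HOM, and 19 were on the other side. The median difference was -10.32 points for rising and 9.27 points for falling exons, against -0.02 over all events. At DIV7 these medians were 0 and 0.9 points. The ESC count fell to 31 or 38 without replicate A or B of Puf60.mEx5.HOM and to 31 without replicate B of Puf60.pEx5.HOM, and the DIV7 count to 21 or 26 without replicate A or B of Puf60.mEx5.HOM and to 23 without replicate A of Puf60.pEx5.HOM.

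Some cell type markers moved with this difference. The summed level of the 12 neuron genes at EB8 was 1097 and 942.1 CPM in Puf60.pEx5.HOM, 1349 and 992.9 in Rbm38KO, 1400 and 1569 in wild type, 1996 and 1876 in Puf60.pEx5.HET and 2098 and 2400 in Puf60.mEx5.HOM, and 10 of the 12 were lower and none higher in Puf60.pEx5.HOM than in Puf60.mEx5.HOM (limma, adjusted p under 0.05 and at least 2-fold). Of 10 endoderm and epithelium genes tested, 6 were higher (267.8 and 391.1 CPM summed over 11 genes, against 63.22 and 44.24). Of 7 mesoderm genes 3 were lower (81.58 and 69.45 against 740.1 and 337.1, summed over 10 genes). Of 8 glia genes 4 were lower (73.94 and 86.35 against 141.2 and 118.6, summed over 9 genes). Of 9 neural progenitor genes 1 was lower and none higher, and of 11 pluripotency genes 1 was higher and 1 lower. Among all 13929 genes 423 were higher and 963 lower. No neuron gene was at 0. The part of cell composition in the splicing differences was not tested. At ESC, 5 of 7 mesoderm genes were lower in Puf60.pEx5.HOM than in Puf60.mEx5.HOM (51.5 and 25.84 against 456.4 and 509.3 CPM summed over all 10 genes). Of all 13929 genes 122 were higher and 221 lower in that contrast.

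**Figure D4:**
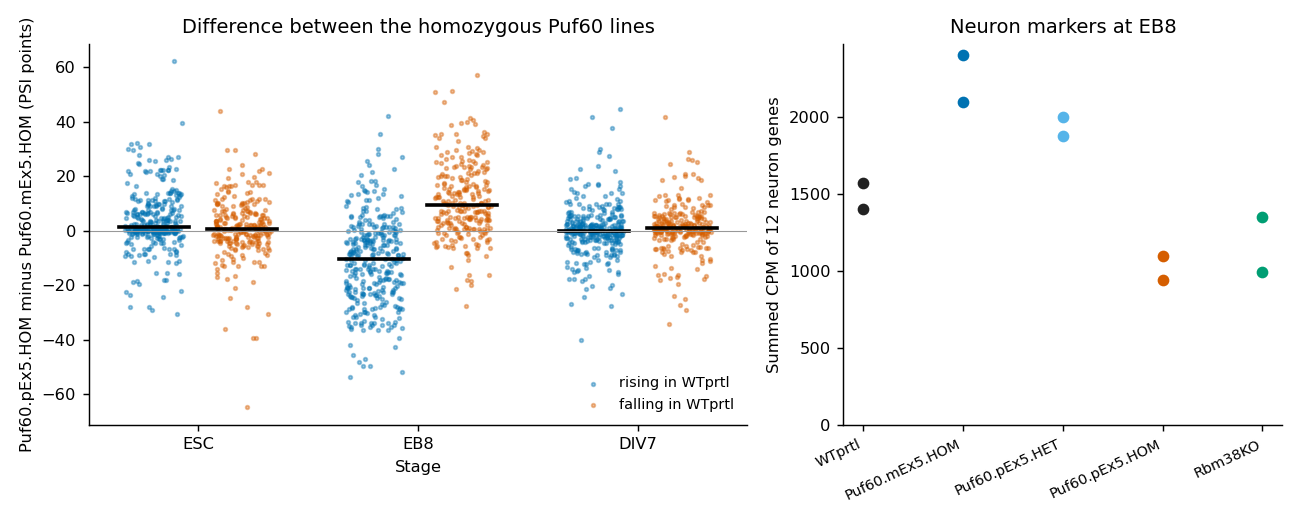
Left, difference in PSI (points) between Puf60.pEx5.HOM and Puf60.mEx5.HOM for each of the 582 exons at the 3 stages, rising and falling exons apart, with black bars at the medians. Right, summed CPM of 12 neuron genes in each EB8 library; Puf60.mEx5.HOM has the highest levels (2098 and 2400) and Puf60.pEx5.HOM stands at 1097 and 942.1.

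The largest differences between these lines at EB8 were in Dtna, Mast4, Socs7 and Nhs. Mast4, a microtubule-associated kinase, had a PSI of 71.22 and 72.04% in Puf60.mEx5.HOM and 22.5 and 13.2% in Puf60.pEx5.HOM, with wild type at 44.8 and 52.9%. This was a difference of -53.75 points (limma, adjusted p = 2e-07). Nhs stood at 43.9 and 37.0% in Puf60.mEx5.HOM and 93.9 and 89.7% in Puf60.pEx5.HOM, a difference of 51.35 points (adjusted p = 5.2e-07). Dtna, a dystrobrevin, differed by 57.17 points (27.1 and 39.1% against 85.9 and 94.6%) in an exon annotated in a 5′ UTR. Socs7, a suppressor of cytokine signalling, stood at 35.5 and 39.9% in Puf60.pEx5.HOM and at 70.6 to 91.6% in the other 4 lines, wild type included. It was also apart at ESC, at 13.4 and 12.2% against 27.8 to 35.6%.

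Among the exons that led at ESC, the 66-nt exon of Ganab kept its call with every library left out in turn. This gene codes for the catalytic subunit of the glucosidase of the endoplasmic reticulum. It stood at 17.3 and 19.5% in Puf60.mEx5.HOM, 32.6 and 35.5% in wild type, 32.8 and 36.4% in Rbm38KO, 38.6 and 46.6% in Puf60.pEx5.HET and 60.2 and 64.6% in Puf60.pEx5.HOM. The difference between the homozygous lines was 44.02 points (limma, adjusted p = 6.53e-11), and the homozygous lines were the lowest and the highest at EB8 (5.98 and 6.63% against 30.4 and 30.0%) and at DIV7 (2.35 and 2.9% against 10.6 and 10.2%) as well. Acsl6 (-64.92 points, adjusted p = 0.0332), Dab1 (62.17, adjusted p = 0.0306) and a 564-nt exon of Srcin1 (-39.52, adjusted p = 0.0206) also passed at ESC, and each lost its call when a single library of either line was left out. At DIV7 the 147-nt exon of Rab3il1 differed by 44.67 points (21.1 and 40.0% in Puf60.mEx5.HOM, 70.7 and 79.7% in Puf60.pEx5.HOM; adjusted p = 0.000328). Taz (41.61 points, adjusted p = 0.0243), Mtf2 (-40.34, adjusted p = 0.0216) and Slc25a40 (37.78, adjusted p = 0.0133) passed too and lost the call without a single library. In the same DIV7 libraries of Puf60.pEx5.HOM against Puf60.mEx5.HOM, 8 of 11 pluripotency genes were higher and 1 lower (186.7 and 271.1 CPM summed, against 48.85 and 48.48), 4 of 8 glia genes and 4 of 7 mesoderm genes were lower, and of 10 endoderm and epithelium genes 2 were higher and 3 lower, where 174 and 214 of 13929 genes were higher and lower. The pluripotency sum at DIV7 was also 184.7 CPM in replicate B of Puf60.pEx5.HET, and 74.55 in its replicate A. The part of these markers was not tested.

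Set against the mean of the other 3 edited lines at EB8, Puf60.mEx5.HOM had 184 exons that passed (3.99% of all events), 175 of them further along in the direction of the switch, and Puf60.pEx5.HOM had 213 (5.46%), of which 195 were less far along. Each line is part of the mean that every other line is set against, at EB8 and at ESC. These counts are therefore not independent of each other or of the contrast between the homozygous lines. The counts dropped to 92 without replicate B of Puf60.mEx5.HOM, and to 137 and 118 without replicate A or B of Puf60.pEx5.HOM. Grip1, a scaffold of glutamate receptors, differed by -37.61 points in Puf60.mEx5.HOM, and Afap1, an actin-binding protein, by -38.75 points in Puf60.pEx5.HOM. The size of the ESC to EB8 step itself differed from that of the other 3 lines in 4 exons of Puf60.mEx5.HOM (0.0459%) and 9 of Puf60.pEx5.HOM (0.219%). It passed in 0 exons of Puf60.pEx5.HET and Rbm38KO (0% of all events in each), where limma gave 22 and 33 exons at an unadjusted p under 0.05 and at least 10 points, beside 2.21% and 1.99% of all events. At EB8 some markers differed too. In Puf60.pEx5.HOM 6 of 12 neuron genes were lower and none higher than in the other 3 lines. Of 10 endoderm and epithelium genes 3 were higher, and of 7 mesoderm genes 2 were lower. Of 9 neural progenitor genes 1 was lower, of 8 glia genes 1 was lower, and of 11 pluripotency genes none passed. Among all 13929 genes 75 were higher and 405 lower. In the EB8 contrast Puf60.pEx5.HET had 5 exons that passed (0.0867%), all further along, and Rbm38KO had 6 (0.168%), all less far along. One exon stood in both short lists, the 30-nt exon of Meaf6, a subunit of histone acetyltransferase complexes. It had 49.7 and 53.4% in Puf60.pEx5.HET (18.05 points above the others, adjusted p = 0.00257) and 25.9 and 23.5% in Rbm38KO (-17.67 points, adjusted p = 0.0105), with 52.3 and 58.7% in Puf60.mEx5.HOM, 22.3 and 18.1% in Puf60.pEx5.HOM and 36.34 and 34.02% in wild type. Puf60.mEx5.HOM thus stood as high as Puf60.pEx5.HET, and Puf60.pEx5.HOM stood below Rbm38KO. Each line is part of the mean the other was set against, so the calls are not independent. Both calls were lost when either library of the line was left out. With 1 library of any line left out, the count of Puf60.pEx5.HET ran from 1 (without either of its own) to 13 (without replicate A of Rbm38KO) and that of Rbm38KO from 0 (without its replicate B) to 10 (without replicate B of Puf60.pEx5.HOM).

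At ESC the same contrasts passed for 17 exons in Puf60.mEx5.HOM (0.561% of all events), 55 in Puf60.pEx5.HOM (2.55%), 2 in Rbm38KO (0.0918%) and 0 in Puf60.pEx5.HET (0.0051%). Besides Ganab, there was Eml4, a microtubule-associated protein, whose exon stood at 37.0 and 32.3% in Puf60.pEx5.HOM and at 60.3 to 80.5% in the other edited lines (-35.61 points, limma, adjusted p = 1.15e-06). In Rbm38KO the exons were those of Mapk8ip3, a scaffold of the c-Jun kinase pathway (23.26 points, adjusted p = 0.0172, lost without replicate B), and of Banp, a nuclear matrix protein (11.45 points, adjusted p = 0.0364, lost without replicate A of Puf60.pEx5.HET and in other settings). At an unadjusted p under 0.05 and at least 10 points, limma gave 10 exons in Puf60.pEx5.HET (1.72%, where all events had 1.2%). Without replicate A or B of Puf60.mEx5.HOM its count was 3 or 8, and without replicate A or B of Puf60.pEx5.HOM its count was 34 or 27, and 5 single libraries each took the Rbm38KO count to 1.

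At DIV7 few exons passed against wild type. Against the wild-type DIV7 libraries 1 exon passed in Puf60.mEx5.HOM (0.133% of all events), 0 in Puf60.pEx5.HET (0.0204%), 0 in Rbm38KO (0%) and 23 in Puf60.pEx5.HOM (1.7%), 12 higher and 11 lower (all events 0.791% and 0.913%). At an unadjusted p under 0.05 and at least 10 points in limma there were 31 exons (5.33%) in Puf60.mEx5.HOM, 20 (3.44%) in Puf60.pEx5.HET, 8 (1.37%) in Rbm38KO and 65 (11.2%) in Puf60.pEx5.HOM. The shares of all events were 2.94%, 2.17%, 1.89% and 6.07%, so that of Rbm38KO was below the share of all events. The 1 exon of Puf60.mEx5.HOM was in Pam, an enzyme of neuropeptide amidation, at 88.5 and 89.7% against 60.7 and 77.3% in wild type (20.05 points, adjusted p = 0.0121), and its call was lost without WTprtl replicate A or either library of the line. In Puf60.pEx5.HOM, Mtf2 (-41.21 points, adjusted p = 0.0363), Fn1 (35.85, adjusted p = 0.0419), P2rx4 (-26.38, adjusted p = 0.0151) and Rab3il1 (25.39, adjusted p = 0.0411) led the 23, and each of the 4 lost its call without WTprtl replicate A. Fn1 is fibronectin, and its 273-nt exon stood at 81.4 and 87.6% against 52.0 and 45.3% in wild type. The count of 23 fell to 9 without WTprtl replicate A and to 12 and 11 without replicate A or B of Puf60.pEx5.HOM. In the same libraries 7 of 11 pluripotency genes were higher than in wild type (186.7 and 271.1 CPM summed, against 69.81 and 71.66) and 1 lower, 5 of 8 glia genes were lower, and of 10 endoderm and epithelium genes 4 were lower and 1 higher. Of 7 mesoderm genes 1 was lower (486.6 and 294.4 CPM summed over all 10 genes of that list, against 2098 and 677 in wild type). The pluripotency sum was not raised in this line alone, since replicate B of Puf60.pEx5.HET stood at 184.7 CPM at DIV7. Among all 13929 genes 119 were higher and 236 lower, and the part of the markers was not tested.

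The genes that hold the exons were measured in level too. Of 543 host genes measured, 170 were higher and 62 lower at EB8 than at ESC over the mean of the edited lines (limma, adjusted p under 0.05 and at least 2-fold), where 21.8% of all 13929 genes were higher and 18.8% lower. From EB8 to DIV7, 125 rose and 55 fell, beside 17.7% and 13% of all genes. The host genes had to give at least 10 reads at their exon in every wild-type library. A gene silent at any stage in wild type could therefore not be among them. The other genes needed only 1 CPM in 2 libraries, so the shares do not compare like with like. With totals in place of median-of-ratios scaling the median log2 change of all genes moved from 0.035 to 0.416, and the host genes counted 229 higher and 27 lower, so 89.5% of the changed hosts were higher in place of 73.3%.

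Splicing regulators were taken from a list of 39 genes, chosen as regulators that switch in neural differentiation and with earlier results of these data known, so its counts are a description and not independent evidence. Of these, 18 were higher and 4 lower at EB8 than at ESC. Ptbp1, a repressor of neuronal exons, fell by 1.84 on the log2 scale to EB8 and by a further 1.86 to DIV7, while its relative Ptbp2 rose by 2.47. Rbfox1 rose by 4.51 and then 2.33, Celf3 by 6.68, Nova1 by 4.21, Elavl4 by 4.39 and Srrm4 by 4.62 on the log2 scale to EB8. The epithelial regulators Esrp1 and Esrp2 fell by 3.37 and 2.37, and Rbm47 fell by 2.54. Between the homozygous lines at EB8, 2 of the 39 were higher and 13 lower in Puf60.pEx5.HOM, and 13 of the 543 host genes were higher and 39 lower (3.04% and 6.91% of all genes). Whether any of these genes acts on the exons was not tested.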

How the data were processed

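The deposited table of splicing events used here is vast-tools output with 1 column per library for 30 libraries in 15 groups of 2. Its values are PSI in percent, per the file headers, and its quality strings, of another kind, hold corrected inclusion and exclusion reads, from which the authors made PSI. The deposited event lengths are in nt and of another kind too. The submitters' processing notes name the build mm10, Salmon 0.14.1 and edgeR with no role given. For the vast-tools version and strand use in counting, the sources used here give nothing. The other 2 deposited tables, which hold 1 value per group, were not used here.

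The exons, gene lists and the read-weighted test were chosen with earlier results of these data known. The log2 ratio of inclusion to exclusion reads, with 1 read added to each, was fitted with limma 3.58.1 (R 4.3.3) over 15 group means, with weights from reads and over-dispersion and robust moderation (15 residual degrees of freedom), for events with at least 10 reads in each library and a mean PSI of 5 to 95. P-values were adjusted over all 19601 events. A call needs an adjusted p under 0.05 and at least 10 points. These p-values reflect only how the 2 libraries of a group vary, which may be technical. Contrasts of the ESC to EB8 step of 1 line with that of the other 3 were added after the data had been seen. Gene levels are junction reads of retained-intron events summed per gene, scaled to CPM by median-of-ratios factors and fitted as log2(CPM + 1) with limma (trend, robust), for genes that reach 1 CPM in 2 or more libraries. Fold changes on this scale understate the change of low genes. Both fits were also run on simulated data, the fit of gene levels with a lower fold for a call than the 2-fold used here. The outcome is not reported here.

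Exons were named by a rule: the 8 that rose and the 8 that fell most among those passing in all 4 edited lines; up to 3 per gene list; up to 5 that passed in no line or in the opposite direction; the 3 on each side of the threshold; up to 4 per direction in the second step; and up to 4 per contrast between lines. A few exons that the rule takes are not reported here. Related exons, exons of genes with several members, and Actn1 were named after their values had been seen. Exons and sequences were matched by coordinates to GENCODE M21 transcripts with Python 3.11.15 and pandas 2.3.3.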

Additional observations from a re-analysis of the deposited data

Results flagged for a closer look

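The step from ESC to EB8 was set against the same step in the other 3 edited lines, a contrast added after the data had been seen. It passed for 4 exons in Puf60.mEx5.HOM (0.0459% of all events) and 9 in Puf60.pEx5.HOM (0.219%), and for 0 in Puf60.pEx5.HET and Rbm38KO, where limma gave 22 and 33 exons at an unadjusted p under 0.05 and at least 10 points (3.78% and 5.67%, beside 2.21% and 1.99% of all events). In each of the 13 cases the tested difference between the steps of the lines is what singled the exon out. All 4 in Puf60.mEx5.HOM moved further in the direction of wild type, and all 9 in Puf60.pEx5.HOM moved less far. The 2 contrasts share libraries, so an exon in both is not seen independently. Summed neuron genes at EB8 were highest in Puf60.mEx5.HOM (2098 and 2400 CPM) and 1097 and 942.1 in Puf60.pEx5.HOM, and their part was not tested.

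Of these exons, 3 passed in both lines. The 132-nt exon of Erc1 stood at 92.35 to 96.77% in all edited ESC libraries. At EB8 it stood at 46.5 and 53.0% in Puf60.mEx5.HOM, 61.8 and 63.8% in Puf60.pEx5.HET, 74.5 and 81.0% in Rbm38KO and 84.5 and 86.1% in Puf60.pEx5.HOM. Its step differed by -26.78 points in Puf60.mEx5.HOM (limma, adjusted p = 0.0179) and by 24.22 points in Puf60.pEx5.HOM (adjusted p = 0.00313). Epb41l1, a membrane skeleton protein, rose from 10.3 and 7.52% to 73.9 and 73.8% in Puf60.mEx5.HOM and from 19.22 and 20.96% to 43.2 and 32.8% in Puf60.pEx5.HOM. Its steps differed by 34.08 points (adjusted p = 0.0182) and -28.62 points (adjusted p = 0.0235). Pip5k1c, a lipid kinase of endocytosis, rose from 22.3 and 19.8% to 84.0 and 91.7% in Puf60.mEx5.HOM and from 43.6 and 41.5% to 67.5 and 70.5% in Puf60.pEx5.HOM. The differences were 24.62 points (limma, adjusted p = 0.0318) and -29.1 points (adjusted p = 0.00954). At ESC Puf60.pEx5.HOM already stood above the other edited lines for Pip5k1c (19.82 to 28.44% there). The same held by less for Epb41l1 (7.52 to 17.87% in the other edited lines).

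The downstream Mapk8 exon passed only in the contrast for Puf60.mEx5.HOM, with -27.03 points (limma, adjusted p = 0.0182); it stood at 24.3 and 20.6% at EB8 there and at 50.5 and 54.7% in Puf60.pEx5.HOM. In Puf60.pEx5.HOM, Atg13, of autophagy, reached 9.95 and 10.7% at EB8 against 43.1 and 48.1% in Puf60.mEx5.HOM (step difference -23.82 points, adjusted p = 0.0184). Stim1, a calcium sensor, stood at 71.2 and 68.4% at EB8 against 32.4 and 36.2% (27.81 points, adjusted p = 0.0196). As for Pip5k1c above, Puf60.pEx5.HOM already stood apart at ESC for Scamp5 and Banp. Scamp5, a secretory carrier protein (-28.71 points, limma, adjusted p = 0.0118), had 53.9 and 48.4% there against 19.1 to 34.3% in the other edited lines. Banp (10.3 points, adjusted p = 0.0181) had 59.7 and 62.2% against 81.69 to 93.03%. Mgrn1, a ubiquitin ligase, differed by -15.19 points (limma, adjusted p = 0.0336) and Afdn, of adherens junctions, by -11.59 points (adjusted p = 0.0336). Puf60.pEx5.HOM was the highest edited line at ESC for Mgrn1 too (25.85 and 29.41% against 19.06 to 25.66%). For Afdn it had 5.24 and 4.67% against 1.84 to 3.85%.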

How the results depend on the processing

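No result reversed under any alternative run. With a threshold of 10 points the choice took 1073 exons. With 0.5 read added, the contrast with the other 3 lines gave 1 exon for Rbm38KO at ESC and 3 each for Puf60.pEx5.HET and Rbm38KO at EB8. Without the filter on mean PSI, counts were 9 for Puf60.pEx5.HOM against WTprtl at DIV7, 33 and 22 between the homozygous lines at ESC and DIV7, and 9 and 35 for Puf60.mEx5.HOM and Puf60.pEx5.HOM against the other lines at ESC. Without weights, DIV7 against WTprtl gave 0 for Puf60.mEx5.HOM and 7 for Puf60.pEx5.HOM; against the other lines, ESC gave 8 for Puf60.mEx5.HOM and 1 for Rbm38KO, and EB8 gave 80 for Puf60.mEx5.HOM, 0 for Puf60.pEx5.HET, 113 for Puf60.pEx5.HOM and 0 for Rbm38KO. On the arcsine scale, Puf60.mEx5.HOM against WTprtl gave 5, and against the other lines Rbm38KO gave 6 at ESC and 29 at EB8 and Puf60.pEx5.HET 15 at EB8. A call at 15 points left 11 for Puf60.mEx5.HOM and 1 for Rbm38KO at ESC and 138 for Puf60.pEx5.HOM at EB8. Total scaling gave 27 lower host genes, and quantile scaling 10 lower regulators from EB8 to DIV7. The cause of these moves was not tested.

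With 1 library left out in turn, exons passing from ESC to EB8 in the wild-type direction numbered 458 to 470 in Puf60.mEx5.HOM, 404 to 457 in Puf60.pEx5.HET, 284 to 322 in Puf60.pEx5.HOM, 335 to 412 in Rbm38KO and 539 to 547 over the mean. In the second step 304 to 313 moved on and 49 to 52 back. Between the homozygous lines the ESC range was 31 to 40, that of EB8 192 to 215 and that of DIV7 21 to 37. Against WTprtl at DIV7 they were 9 to 22 for Puf60.pEx5.HOM, 0 to 4 for Puf60.mEx5.HOM (0 without WTprtl replicate A or either of its own libraries, 4 without WTprtl replicate B), 0 to 1 for Puf60.pEx5.HET and 0 to 0 for Rbm38KO. Against the other lines they were 3 to 16 at ESC and 92 to 187 at EB8 for Puf60.mEx5.HOM, 0 to 0 and 1 to 13 for Puf60.pEx5.HET, 27 to 61 and 118 to 214 for Puf60.pEx5.HOM, and 1 to 3 and 0 to 10 for Rbm38KO. Host genes ran from 167 to 171 higher and 61 to 65 lower, regulators at 18 to 18 and 4 to 4, then 7 to 9 and 6 to 8. A group left with 1 library is assumed to vary like the others. Of the named exons, calls were lost 77 times and gained 2 times in these fits, and lost 15 times without the PSI filter, 17 without weights, 5 with 0.5 read and 1 at 15 points.

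Replicate letters are only names here: over 105 pairs of groups the correlation of same-letter deviations was -0.077 to 0.146 (median 0.01), with 7 over 0.1. With the letter as a replicate block the ESC to EB8 counts were 503, 483, 371 and 448 for Puf60.mEx5.HOM, Puf60.pEx5.HET, Puf60.pEx5.HOM and Rbm38KO and 547 over the mean, and no named call changed. Of the 670 exons, 88 were outside the fit, 83 for too few reads in a library and 5 for their mean PSI.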
